A study of Mus musculus with 10 samples.

Results

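The nuclear genes of the mitochondrial respiratory chain were followed in RNA sequencing of the peri-pulmonary vein portion of the mouse left atrium, the muscle around the openings of the lung veins. Members were all genes named as subunits of the 5 complexes by symbol (names that begin with Nduf, Uqcr or Atp5, the 4 Sdh genes, and Cox4 to Cox8 genes), without entries named as pseudogenes. This gave 96 of the 54532 genes in the table, 86 of them structural and 10 assembly or associated factors. Of 103 matching entries, 6 were left out by their pseudogene names and 1 was a second, lower entry for Atp5o. Of the 6, Ndufb1-ps was expressed at the level of a subunit gene (a mean of 129 CPM in Ctrl, 166 in CKO), whereas the other 5 had at most 9 counts. There were 10 libraries, 4 from control mice (Ctrl, R26creERT2/creERT2; Tbx5+/+) and 6 from mice in which Tbx5 was to be deleted by tamoxifen (CKO, R26creERT2/creERT2; Tbx5flox/flox). Tbx5 encodes a T-box transcription factor of the atrium. Both groups carried a tamoxifen-inducible Cre recombinase on both Rosa26 alleles, a locus that is active in most cell types, and both received tamoxifen by intraperitoneal injection on 3 days at 6 weeks of age. The control animals had no floxed allele. Tissue was taken 1 week later, at 7 weeks of age, and a short stretch of vein stayed attached to it.

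The respiratory chain sits in the inner mitochondrial membrane and makes most of the ATP of heart muscle. Complex I takes electrons from NADH and complex II from succinate, complex III passes them to cytochrome c, complex IV hands them to oxygen, and the ATP synthase, complex V, uses the resulting proton gradient. Some subunits of every complex except complex II are encoded in mitochondrial DNA and the others in the nucleus. The choice by symbol leaves out a few nuclear subunits with other names, such as Cyc1 of complex III and Usmg5 of the ATP synthase, which are described with the genes that work with the chain. Several complex IV subunits exist in a heart and muscle form and in a form found in most tissues.

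Summed counts per library lay between 8602794 and 10040808. Exon 3 of Tbx5 checked the labels: its coverage was 0.994 to 1.23 times that of the median Tbx5 exon in the 4 Ctrl libraries and 0.203 to 0.621 times in the 6 CKO libraries. Over the whole gene Tbx5 counts went the other way, from 89.6 to 159 CPM in Ctrl and from 167 to 425 CPM in CKO, so that only the relative coverage of exon 3 was lower. All 15 cardiomyocyte markers examined were expressed, among them the atrial light chain gene Myl7. The 37 genes of the mitochondrial genome were at 0 in every library, so the mitochondrially encoded subunits could not be set beside the nuclear ones. Nothing in the labels says whether the animals shared litters or days, so that p-values measure the spread between these animals only.

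Members together made up 6.94, 6.92, 7.19 and 5.79% of all TPM (a transcript level corrected for length and library size) in Ctrl 1 to Ctrl 4. In CKO 1 to CKO 6 they made up 7.56, 7.23, 6.77, 6.51, 7.94 and 7.53%. Ctrl 4 was the lowest of all libraries and CKO 5 the highest, and the groups overlapped. Among complexes, the structural genes of the ATP synthase had the highest summed level in Ctrl (21402 ± 1733 TPM, SD, n = 4), followed by those of complex I (18258 ± 1376), complex IV (18097 ± 2552), complex III (6186 ± 715) and complex II (2281 ± 368). Complexes I and IV did not differ beyond their spread. In CKO (n = 6) the sums were 22367 ± 949 TPM for the ATP synthase, 19851 ± 1278 for complex I, 19517 ± 2628 for complex IV, 7633 ± 799 for complex III and 2359 ± 163 for complex II. The ratio of CKO to Ctrl was therefore highest for complex III, at 1.23, and lay between 1.03 and 1.09 for the other 4. Without Uqcr11, Cox6b1 and Ndufa6, members whose last exon is described below, it was 1.14 for complex III, 1.03 for complex IV and 1.08 for complex I. In CPM (counts scaled to library size, with no correction for length) the ratios of all structural genes were 1.3 for complex III, 1.21 for complex IV, 1.18 for complex I, and 1.12 for complex II and the ATP synthase. In complex III the Ctrl libraries stood at 6438, 6558, 6628 and 5120 TPM and the CKO libraries at 8209, 7836, 6744, 6546, 7975 and 8487. Only CKO 4 fell inside the Ctrl range there. RNA was taken from whole tissue, so fewer cells of a type and less RNA per cell cannot be told apart.

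**Figure D1:**
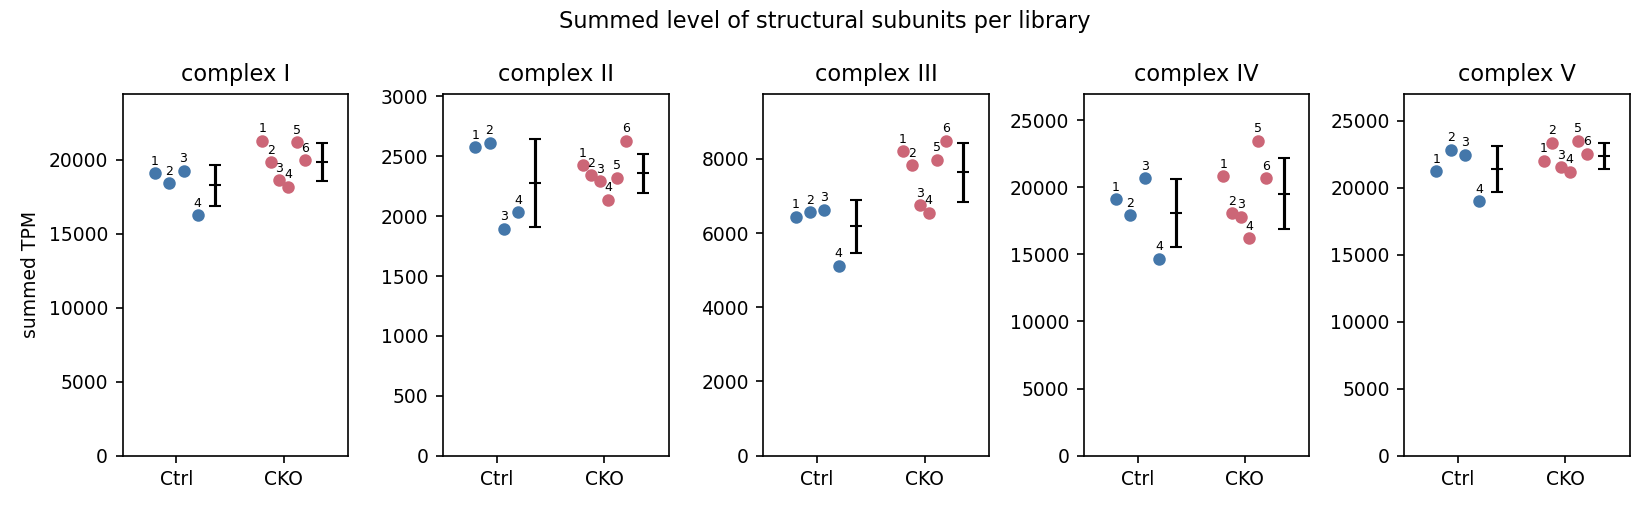
Summed TPM of the structural genes of each complex (vertical axis, from 0) in every library, with the replicate number above each point and the mean and SD of each group as a black bar. Complex III shows the highest ratio between group means (6186 in Ctrl and 7633 in CKO), and Ctrl 4 is the lowest Ctrl library in every panel but that of complex II, where Ctrl 3 is lower.

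No member was called changed when CKO was compared with Ctrl, although most leaned upward. Of 90 members with enough counts to test, 0 passed an adjusted p of 0.05 in edgeR's quasi-likelihood test, against 2.8% of the 17752 genes tested. In the same test 19 members had an unadjusted p under 0.05 and all of these were higher in CKO, where 8.86% of all tested genes were higher and 8.14% lower at that level. A positive fold change was found for 82 of the 90, against 46.6% of all genes, and the median log2 fold change was 0.25 for members and -0.03 for all genes. Of members, 2 had CPM values in CKO that lay entirely above those in Ctrl (3.03% of all genes did), namely Cox6b1 and Uqcrc2, and 0 lay entirely below (2.7%). DESeq2 called 2 members higher, against 3.91% of all genes, limma-voom 1, against 1.34%, and limma on log2(TPM + 1) 0, against 1.01%.

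The upward lean was not even over libraries. Relative to each gene's mean, the median member stood at -0.115, -0.084, 0.102 and -0.484 on the log2 scale in Ctrl 1 to 4, and at 0.229, 0.045, -0.044, -0.144, 0.489 and 0.058 in CKO 1 to 6. Ctrl 4 and CKO 5 were the extremes. Without Ctrl 4 the members' median log2 fold change was 0.135 and 72 were positive, and without CKO 5 it was 0.147 with 73 positive. Without Ctrl 3 and CKO 4, the 2 libraries with abundant airway transcripts, it was 0.427 with 87 positive. On the TPM scale 63 members were positive, with a median of 0.101 for members and -0.151 for all genes.

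Markers of other cells did not move evenly across libraries either. Summed fat markers, among them those of brown fat, a tissue rich in mitochondria, stood at 2385, 1509, 1114 and 1202 CPM in Ctrl 1 to 4. In CKO 1 to 6 the sums were 723, 812, 536, 1020, 2269 and 1181 CPM. All 10 of these markers had a negative fold change with 0 called (edgeR). Among them Fabp4 (552 to 896 CPM in Ctrl and 327 to 1074 CPM in CKO) is also an endothelial marker and counts in both sums. The brown fat uncoupling protein gene Ucp1 was detected in every library, from 50.5 CPM in CKO 4 to 636 CPM in Ctrl 1. Adipoq, another marker of this sum, was at 112 CPM in CKO 4 and 148 CPM in Ctrl 1. The sum therefore need not speak for Ucp1. The 15 cardiomyocyte markers summed to between 90771 and 130478 CPM in Ctrl and between 80177 and 142472 CPM in CKO. The lowest sum was in CKO 5, the library in which members were highest. Ttn alone gave the largest part of this sum, from 37625 CPM in CKO 5 to 81641 CPM in CKO 3. As single genes 9 of the 15 were positive, 2 were called higher and 3 lower (edgeR, median log2 fold change 0.30). Without Ctrl 1, Ctrl 2, CKO 5 and CKO 6, which had the highest Ucp1 values, the members' median log2 fold change was 0.195 and 78 were positive. Markers of connective tissue, vessels and immune cells were also uneven. Of 10 fibroblast markers 8 were positive and 1 was called higher (edgeR, median log2 fold change 0.58), of 10 endothelial markers 8 and 1 (0.21), and of 10 macrophage markers 9 and 2 (0.81). Fibroblast markers summed to between 9814 and 15941 (Ctrl) and between 13010 and 20456 CPM (CKO), endothelial markers to between 1856 and 2853 (Ctrl) and between 2757 and 4089 CPM (CKO). Macrophage markers summed to between 1007 and 1868 (Ctrl) and between 1249 and 2482 CPM (CKO). All 3 sums were lowest in Ctrl 4 and highest in CKO 5, the same libraries in which the members were lowest and highest. Of 10 smooth muscle markers 7 were positive and 1 was called higher. Their sum did not overlap between groups except for CKO 6 (2208 to 2680 CPM in Ctrl and 2669 to 3412 CPM in CKO). The marker called was Des, the largest part of this sum in every library (843 to 1025 CPM in Ctrl and 1359 to 2085 CPM in CKO). The sum therefore need not speak for the other markers. Myh11, Smtn and Kcnj8 were negative (log2 fold change -0.26, -0.19 and -0.05), and Rgs5 was at 0.01. The part of these cells in the members' values was not tested.

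Complex I had 39 structural genes, of which 36 were tested. All 36 had a positive fold change (29 of them on the TPM scale), 9 with an unadjusted p under 0.05, and their median was 0.26 on the log2 scale. Without Ctrl 4, 31 of the 36 were positive, and without CKO 5, 32. The highest members by TPM were Ndufb9, an accessory subunit of the membrane arm (1223 ± 169 TPM in Ctrl and 1384 ± 113 in CKO), and Ndufv3, an accessory subunit of the module that takes up electrons (859 ± 139.8 TPM in Ctrl and 919.7 ± 109.5 in CKO). Of Ndufv3, the short transcript made up 96.3% ± 1.16 of its TPM in Ctrl and 96.9% ± 0.79 in CKO, so the balance of its forms differed by less than the spread.

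Ndufa9, an accessory subunit near the junction of the arms (ENSMUSG00000000399, GRCm38 chromosome 6, 126821721 to 126849136, minus strand), had the lowest p of the complex among genes not named below for their last exon. It stood at 303, 309, 321 and 242 CPM in Ctrl 1 to 4 and at 312, 371 and 417 CPM (lowest, median and highest) in CKO. Only CKO 4 was inside the Ctrl range. Its log2 fold change was 0.32 (SE 0.11), which missed the threshold (edgeR adjusted p = 0.173). Ndufb6, of the membrane arm, was at 105, 110, 141 and 77.8 CPM in Ctrl and at 127, 142 and 221 CPM in CKO, where the lower CKO libraries overlapped Ctrl 3 (log2 fold change 0.54, SE 0.19, edgeR adjusted p = 0.180).

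The 8 complex I assembly factors, which build the complex and are not part of it, were less uniform. Of these, 5 had a positive and 3 a negative fold change. Ndufaf4 had the lowest fold change of all members (-0.43, SE 0.54, edgeR adjusted p = 0.726) and stood at 81.6, 18.8, 72.8 and 20.4 CPM in Ctrl and at 17.4, 23.0 and 76.2 CPM in CKO. The values of both groups were split between a low and a high level. Ndufaf3 was at 24.6, 21.9, 26.3 and 20.8 CPM in Ctrl and between 13.8 and 33.4 CPM in CKO, so that the CKO range enclosed that of Ctrl (log2 fold change -0.09, adjusted p = 0.887, edgeR). Without 3′ terminal exons Ndufaf4 was at -0.01 and Ndufaf3 at 0.20 on the log2 scale.

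Complex II, succinate dehydrogenase, links the citric acid cycle to the chain and has 4 genes. Sdhb, the iron-sulphur subunit (ENSMUSG00000009863, chromosome 4, 140961203 to 140979193, plus strand), was at 534, 539, 532 and 402 CPM in Ctrl and at 515, 621 and 723 CPM in CKO. Ctrl 4 stood apart below, and CKO 4 lay inside the Ctrl range (log2 fold change 0.33, SE 0.13, edgeR adjusted p = 0.223). Sdhd, a membrane anchor, was at 292, 329, 318 and 231 CPM in Ctrl and at 304, 374 and 438 CPM in CKO, and again only CKO 4 overlapped (0.37, SE 0.13, edgeR adjusted p = 0.190). Sdha, the flavoprotein that oxidises succinate, and Sdhc, the other anchor, were near even, at -0.02 (SE 0.12) and 0.07 (SE 0.10) on the log2 scale, and Sdhc was at -0.23 on the TPM scale.

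Complex III had 8 tested genes, all with a positive fold change, 4 with an unadjusted p under 0.05, and the highest median of the 5 complexes (0.35). All 8 were also positive with CKO 5 or Ctrl 4 left out and on the TPM scale. Uqcrc2, core protein 2 of the complex, was named after its values were known and stood at 540, 527, 547 and 416 CPM in Ctrl and at 548, 646 and 794 CPM in CKO. The groups did not overlap, but CKO 4 (548 CPM) and Ctrl 3 (547 CPM) were almost equal (log2 fold change 0.35, SE 0.12, edgeR adjusted p = 0.181). Of the 50-base stretches of its transcript, 24.8% also occur in the overlapping gene Pdzd9. Uqcrb, the ubiquinone-binding subunit, stood at 237, 229, 325 and 177 CPM in Ctrl and 275, 301 and 488 CPM in CKO, with overlap (0.47, SE 0.20, adjusted p = 0.266, edgeR), and 43.4% of its stretches recur in other genes. Uqcr10, the small subunit with the highest TPM of the complex, was at 1236 ± 185 TPM in Ctrl and 1354 ± 175 in CKO.

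Uqcr11, a small subunit of complex III (ENSMUSG00000020163, chromosome 10, 80402997 to 80406830, minus strand), had the highest fold change of all members. It stood at 151, 149, 176 and 102 CPM in Ctrl and at 444, 415, 178, 172, 272 and 421 CPM in CKO 1 to 6. CKO 1, 2 and 6 were far above every Ctrl library, whereas CKO 4 lay inside the Ctrl range and CKO 3 just above it. The log2 fold change was 1.13 (SE 0.31, edgeR adjusted p = 0.0820). The exons of Uqcr11 did not differ alike. Exon 2 had a coverage of 423, 403, 471 and 254 reads per base in Ctrl and 466, 473, 419, 447, 685 and 451 in CKO, so that the groups overlapped. Exon 3, the 3′ terminal exon of 159 bases (80402997 to 80403155), was at 27.0, 26.1, 27.3 and 33.3 in Ctrl but at 788, 771 and 723 in CKO 1, 2 and 6, and at 90.5, 86.7 and 98.1 in CKO 3, 4 and 5. Exon 3 holds 0 coding bases in the annotation. Counts were then rebuilt from the exons of a single transcript per gene, that with the most exons, without its 3′ terminal exon. Coverage of the gene outside those exons was dropped too. On these counts the log2 fold change of Uqcr11 was 0.27 (SE 0.17, edgeR adjusted p = 0.450). The coding sequence of its main transcript, without the stop codon, is given below with the 118 bases that come from exon 2 in capitals, to show that the whole protein is encoded outside the exon that varied.
Uqcr11: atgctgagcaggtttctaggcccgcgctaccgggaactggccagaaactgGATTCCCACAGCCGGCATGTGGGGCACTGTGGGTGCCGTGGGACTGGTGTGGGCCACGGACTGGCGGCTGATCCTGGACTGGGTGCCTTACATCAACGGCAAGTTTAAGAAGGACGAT

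Cox6b1, the form of complex IV subunit 6B found in most tissues (ENSMUSG00000036751, chromosome 7, 30616861 to 30626151, minus strand), had the lowest p of all members. It stood at 531, 222, 343 and 389 CPM in Ctrl and at 801, 642, 614, 604, 979 and 668 CPM in CKO, without overlap. The log2 fold change was 0.95 (SE 0.23) and edgeR's adjusted p was 0.0526. DESeq2 called it with an adjusted p of 0.000989, and so did limma-voom, edgeR with RLE factors and edgeR without Ctrl 1. Its 3′ terminal exon of 302 bases, of which 51 are coding, was nearly empty in 2 Ctrl libraries: the ratio of its coverage to that of the other exons was 1.43, 0.00199, 0.102 and 1.3 in Ctrl 1 to 4 and 1.23 to 1.7 in CKO. Without 3′ terminal exons Cox6b1 stood at 408, 417, 569 and 326 CPM in Ctrl and between 496 and 656 CPM in CKO, with overlap, and its log2 fold change was 0.38 (SE 0.15, edgeR adjusted p = 0.248).

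Ndufa6, an accessory subunit of complex I, showed the same kind of split. It was at 80.4, 77.7, 91.2 and 59.7 CPM in Ctrl and at 89.7, 170, 64.9, 170, 270 and 80.7 CPM in CKO. The ratio for its 3′ terminal exon was 0.105 to 0.24 in Ctrl, 0.197 to 0.268 in CKO 1, 3 and 6, and 3.09, 3.05 and 2.42 in CKO 2, 4 and 5. CKO 2, 4 and 5 were also the CKO libraries with high counts. The log2 fold change was 0.87 (SE 0.37) with this exon and 0.11 (SE 0.18) without it, and neither passed (edgeR adjusted p = 0.263 and 0.822). The CKO libraries with high terminal exons were thus not all the same for Uqcr11 and Ndufa6, and only CKO 2 was high in both.

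Such a split was found in 9 of 80 members with a usable ratio (11.25%), and in 7.94% of 3779 genes overall. It was defined, after the data were seen, as a ratio that varies at least 5-fold over libraries and reaches at least 0.25 in one of them. Uqcrh, the hinge subunit of complex III, varied more than 5-fold (0.0252 to 0.182) but stayed below that level. The 9 were Atp5l, Cox6b1, Cox7c, Ndufa11, Ndufa6, Ndufaf4, Ndufb8, Ndufv1 and Uqcr11. Their patterns over libraries differed. In Cox7c the ratio reached 0.338 in CKO 2 only and was at most 0.0622 elsewhere. In Ndufv1, the flavin subunit that accepts electrons from NADH, the ratio was low in Ctrl 2 (0.234), CKO 4 (0.0709) and CKO 6 (0.0436) and between 1.51 and 2.01 elsewhere. In Ndufa11 it was low in CKO 4 and CKO 6 only (0.338 and 0.484). In Atp5l, the g subunit of the ATP synthase, it was high in Ctrl 1, Ctrl 2, CKO 5 and CKO 6, though 84.8% of its stretches recur in other genes. What sets the coverage of these exons was not tested. Without 3′ terminal exons 0 of 90 members passed in edgeR (3.03% of 12204 genes did), 16 had an unadjusted p under 0.05 (all higher, against 8.69% of genes), 81 were positive against 49.9% of genes, and the highest log2 fold change was 0.64, that of Cox5b.

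**Figure D2:**
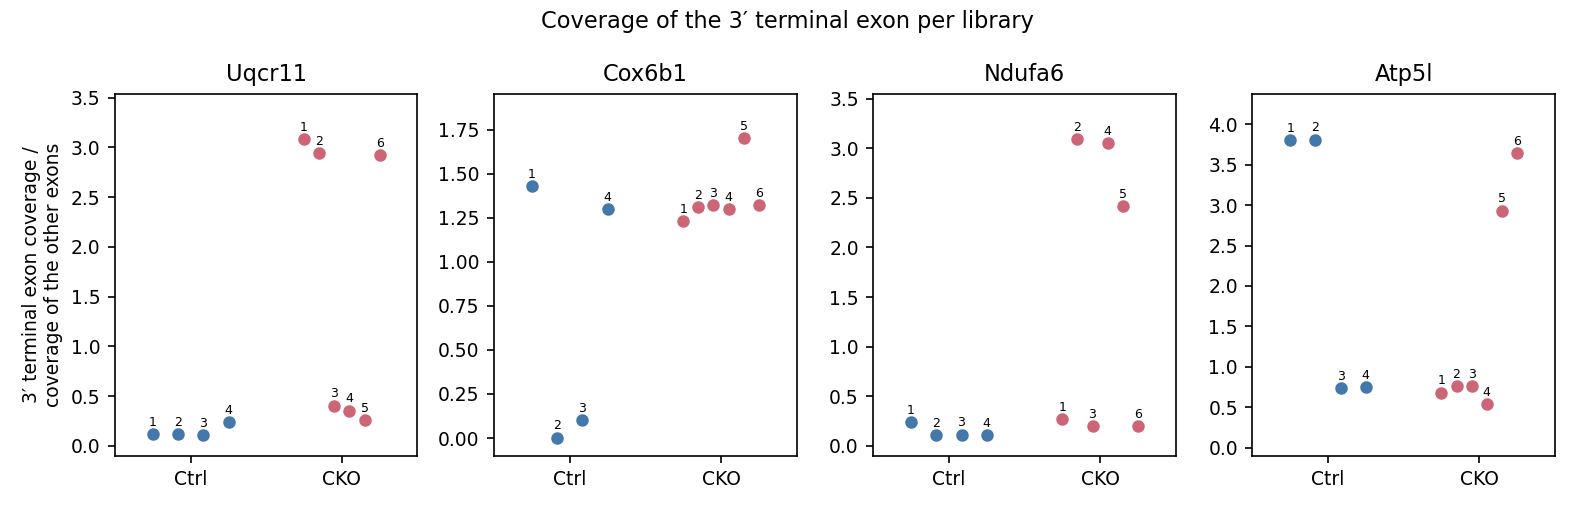
Ratio of the coverage of the 3′ terminal exon to that of the other exons (vertical axis) in every library for 4 members, with replicate numbers above the points. Uqcr11 is high in CKO 1, 2 and 6 (2.92 to 3.08), Cox6b1 is near 0 in Ctrl 2 and Ctrl 3, Ndufa6 is high in CKO 2, 4 and 5, and Atp5l is high in libraries of both groups.

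**Figure D3:**
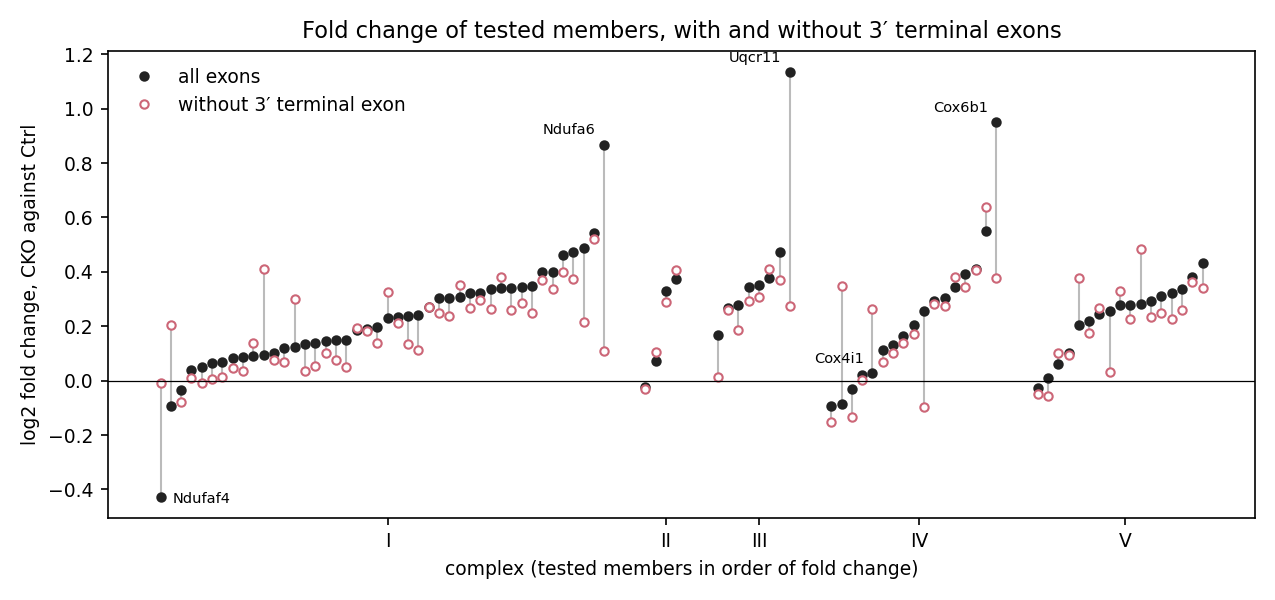
Log2 fold change of CKO against Ctrl (vertical axis) for the 90 tested members, in order within each complex, with all exons (filled) and without 3′ terminal exons (open). The 3 highest members, Uqcr11, Cox6b1 and Ndufa6, move from 1.13, 0.95 and 0.87 to 0.27, 0.38 and 0.11, while most others move little.

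In complex IV 16 structural genes were tested, of which 13 had a positive fold change (11 on the TPM scale) and 2 an unadjusted p under 0.05. Without Ctrl 4, 10 of the 16 were positive, and without CKO 5 also 10. Cox4i1, the common form of subunit 4 and highest of the complex by TPM together with Ndufa4, was at 720, 726, 801 and 536 CPM in Ctrl and at 860, 426, 710, 378, 1111 and 773 CPM in CKO. CKO 2 and CKO 4 were lower than every other library (log2 fold change 0.03, SE 0.28, and 0.26, SE 0.13, without 3′ terminal exons; edgeR adjusted p = 0.972 and 0.326; -0.32 on the TPM scale). Its shortest transcript, of 438 bases, took 62.7 to 78.4% of its TPM in 8 libraries and 3.26 and 3.6% in these 2. Ndufa4, a subunit of complex IV that was first assigned to complex I, was at 531, 539, 813 and 393 CPM in Ctrl and at 570, 630 and 1043 CPM in CKO, and the groups overlapped (0.30, SE 0.22).

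The muscle forms of subunits 6A, 7A and 8 exceeded their general forms in every library. Cox6a2 made up 82.0% ± 3.79 of the TPM of its pair in Ctrl and 85.0% ± 3.31 in CKO, Cox7a1 63.0% ± 2.91 and 59.7% ± 1.14, and Cox8b 68.0% ± 3.58 and 72.2% ± 2.02. The 3 pairs therefore did not move in the same direction. The log2 ratio of Cox7a1 to Cox7a2 was 0.95, 0.73, 0.54 and 0.85 in Ctrl and 0.48 to 0.63 in CKO, where only Ctrl 3 reached the CKO values (difference -0.20; exact two-sided permutation test over 210 relabellings, p = 0.0286, adjusted over 6 pairs 0.0571). The log2 ratio of Cox8b to Cox8a was 1.20, 1.28, 1.14 and 0.76 in Ctrl and 1.22 to 1.58 in CKO, where Ctrl 2 overlapped (difference 0.29; exact permutation p = 0.0286, adjusted 0.0571). That of Cox6a2 to Cox6a1 differed by 0.32 (exact permutation p = 0.219, adjusted 0.329). None of the 6 pairs passed after adjustment. As single genes none of these forms passed edgeR's test, with log2 fold changes of -0.03 for Cox7a1, 0.13 for Cox7a2, 0.17 for Cox8b, -0.09 for Cox8a, 0.29 for Cox6a2 and 0.02 for Cox6a1. The signs of Cox7a1, Cox7a2, Cox8a, Cox8b and Cox6a1 turned in at least 1 alternative setting.

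The other 3 pairs have a rare form. Cox4i2, the lung and hypoxia form of subunit 4, made up 0.338% ± 0.0677 of its pair in Ctrl and 0.449% ± 0.239 in CKO, and Ndufa4l2, a relative of Ndufa4 induced by hypoxia, 0.594% ± 0.0851 and 0.599% ± 0.217 (exact permutation p = 0.5 and 0.876, adjusted 0.6 and 0.876). Cox6b2, the testis form of subunit 6B, had 69 counts over all libraries. Its log2 ratio to Cox6b1 differed by -1.37 (exact permutation p = 0.0190, adjusted 0.0571), a ratio that carries the terminal exon of Cox6b1 described above.

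Reads can be told apart in these pairs. The coding sequences of Cox7a1 and Cox7a2 were identical at 61.6% of aligned positions, and their longest shared run was 12 bases, shorter than a read of 50 bases. Both are printed without the stop codon, with that run in capitals, because they show why counts of the muscle and general form are separate measurements. Cox7a1 is on chromosome 7 (30184144 to 30186078, plus strand) and Cox7a2 on chromosome 9 (79755361 to 79759878, minus strand).
Cox7a1: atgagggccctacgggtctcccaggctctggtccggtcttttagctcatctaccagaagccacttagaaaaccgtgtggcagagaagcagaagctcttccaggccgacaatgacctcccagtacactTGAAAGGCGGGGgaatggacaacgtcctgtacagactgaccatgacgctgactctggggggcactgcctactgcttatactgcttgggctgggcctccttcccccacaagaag
Cox7a2: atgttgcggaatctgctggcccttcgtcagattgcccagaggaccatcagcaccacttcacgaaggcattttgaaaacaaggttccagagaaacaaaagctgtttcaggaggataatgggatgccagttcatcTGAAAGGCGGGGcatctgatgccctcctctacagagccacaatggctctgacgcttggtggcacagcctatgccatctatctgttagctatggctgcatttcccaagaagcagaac

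**Figure D4:**
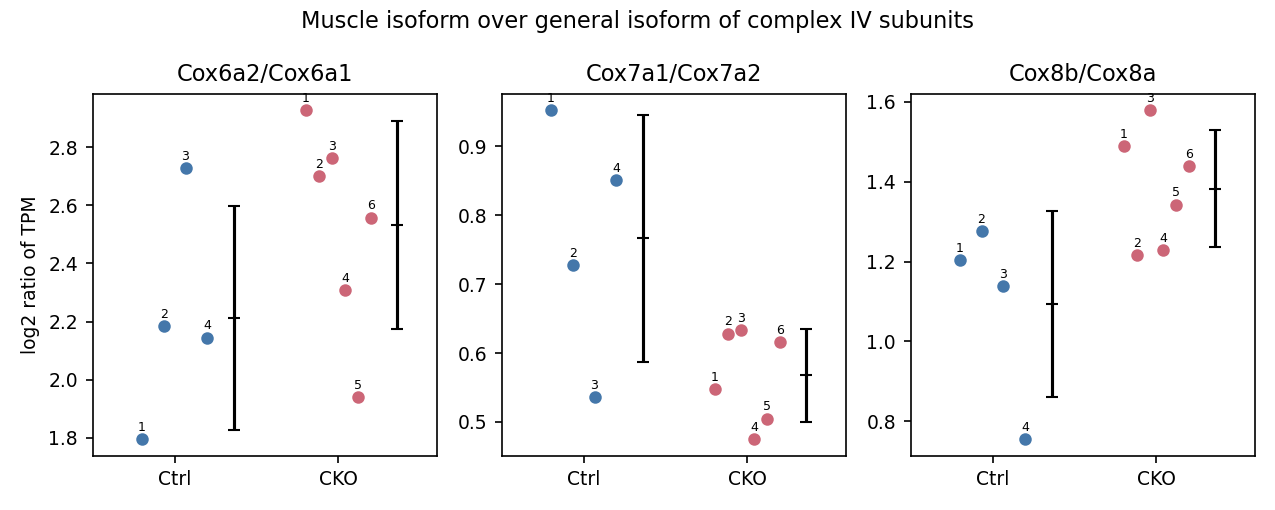
Log2 ratio of TPM of the muscle form to the general form (vertical axis, not starting at 0) for 3 complex IV subunits in every library, with replicate numbers above the points and the group mean and SD as a black bar. Ratios of Cox7a1 to Cox7a2 are lower in CKO (mean 0.57 against 0.77) and those of Cox8b to Cox8a higher (1.38 against 1.09), with 1 or more libraries overlapping in each panel.

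The ATP synthase had 16 tested structural genes, all with a positive fold change (11 of them on the TPM scale) and 2 with an unadjusted p under 0.05. Without Ctrl 4 the ATP synthase had 15 positive genes, and without CKO 5 it had 14. Its catalytic head genes were the most abundant members: Atp5b, the beta subunit, was at 3888 ± 586 TPM in Ctrl and 3708 ± 495 in CKO, and Atp5a1, the alpha subunit, at 3358 ± 472 and 2926 ± 402. In CPM both were near even (log2 fold change 0.10, SE 0.11, for Atp5b and 0.01, SE 0.11, for Atp5a1). On the TPM scale both were below 0, at -0.0661 and -0.199. Atp5f1, the b subunit of the peripheral stalk, was at 460, 522, 563 and 362 CPM in Ctrl and at 521, 606 and 779 CPM in CKO, where CKO 3 and CKO 4 overlapped Ctrl (0.38, SE 0.15, edgeR adjusted p = 0.227).

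Subunit c, which forms the rotating ring, is made from 3 genes. In Ctrl Atp5g1 supplied 50.6% ± 3.16, Atp5g3 45.1% ± 2.16 and Atp5g2 4.29% ± 1.17 of their TPM, and in CKO 49.7% ± 7.69, 46.5% ± 7.08 and 3.81% ± 0.689. CKO 1 stood apart, with 34.0% from Atp5g1 and 60.9% from Atp5g3. In that library the 3′ terminal exon of Atp5g1 had a coverage of 357 reads per base, against 659 to 931 in the other CKO libraries, while its exon 4 was at 327, within their range of 261 to 386. Of the stretches of Atp5g1 and Atp5g2, 66.0% and 87.4% recur in other genes, so these shares are uncertain. Of Atp5c1, the gamma subunit of the central stalk, the main transcript of 1060 bases took 93.2% ± 4.08 in Ctrl and 85.7% ± 12.3 in CKO, where CKO 5 alone was at 61.4%.

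Genes that work with the chain were examined next. Of 49 tested genes of further assembly factors and electron carriers 39 had a positive fold change (46.6% of all genes did). Their median was 0.16 on the log2 scale. In edgeR's test 1 of the 49 rose and 0 fell (1.54% and 1.26% of all genes). This was Atpif1, the inhibitor that keeps the ATP synthase from running backwards, which went from 60.2, 60.1, 87.9 and 53.6 CPM in Ctrl to 113, 99.7, 96.6, 95.6, 148 and 101 CPM in CKO. The groups did not overlap (log2 fold change 0.74, SE 0.17, edgeR adjusted p = 0.0427). Cycs, cytochrome c, Cyc1, the cytochrome of complex III, and Usmg5, a small subunit of the ATP synthase, had log2 fold changes of 0.42, 0.37 and 0.46 and did not pass (edgeR adjusted p = 0.25, 0.272 and 0.36). Of 12 tested genes of energy export 9 had a positive fold change, with a median of 0.13 on the log2 scale. In edgeR's test 2 of the 12 rose and 0 fell (1.54% and 1.26% of all genes). They were Ckmt2, a mitochondrial creatine kinase (787 ± 77.1 to 1087 ± 63.8 CPM, log2 fold change 0.47, edgeR adjusted p = 0.0314), and Ckm, the muscle creatine kinase (702 ± 132 to 1120 ± 161 CPM, log2 fold change 0.67, edgeR adjusted p = 0.0428). Ckmt1, the other mitochondrial creatine kinase listed, was at -0.36 (edgeR adjusted p = 0.776). Of 20 tested regulators of mitochondrial biogenesis 0 were called (edgeR) and 5 had a positive fold change, with a median of -0.09. The coactivator Ppargc1a was at -0.35 (SE 0.26), the nuclear receptors Esrra and Esrrg at -0.16 and -0.34, and the mitochondrial transcription factor Tfam at 0.06 on the log2 scale.

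Promoter sequences, the 250 bases before the start in RefSeq (GRCm38.p6), were matched for 74 of the 90 tested members. They were searched on both strands for short core motifs of factors known for this gene class. The NRF1 core GCGCATGC was found in 9 of 74 (12.2%) and in 2.25% of all 32817 promoters. The GABPA core CGGAAGT was found in 8 (10.8%, against 4.91%), the ERR core AAGGTCA in 5 (6.76%, against 4.08%) and the SP1 core GGGCGG in 29 (39.2%, against 32.7%). The T-box core GGTGTGA was found in 0 of 74, and in 3.33% of all. Promoters share base composition within a class, and a match of letters does not show binding. The promoters of Uqcr11 and Cox6b1, the members with the lowest p, and of Sdhb, which holds 2 kinds of motif, are printed with motif letters in capitals. They lie on GRCm38.p6 at chr10:80406822-80407071 (minus strand), chr7:30626115-30626364 (minus strand) and chr4:140961021-140961270 (plus strand). For Uqcr11, Cox6b1 and Sdhb the RefSeq start lies inside the gene span given above, so the printed bases run into that span. The capitals mark a GABPA core in Uqcr11 and in Cox6b1, and 3 SP1 cores and 1 NRF1 core in Sdhb. The NRF1 core of Sdhb lies in the part inside its gene span.
Uqcr11: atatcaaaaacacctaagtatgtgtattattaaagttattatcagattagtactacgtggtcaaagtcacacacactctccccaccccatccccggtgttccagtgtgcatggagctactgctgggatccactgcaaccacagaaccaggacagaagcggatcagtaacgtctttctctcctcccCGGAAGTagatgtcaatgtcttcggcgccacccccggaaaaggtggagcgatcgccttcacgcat
Cox6b1: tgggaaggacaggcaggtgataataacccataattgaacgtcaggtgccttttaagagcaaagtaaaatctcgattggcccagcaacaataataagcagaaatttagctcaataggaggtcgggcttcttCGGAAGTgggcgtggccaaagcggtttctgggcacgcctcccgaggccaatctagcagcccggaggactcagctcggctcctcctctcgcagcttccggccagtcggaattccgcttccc
Sdhb: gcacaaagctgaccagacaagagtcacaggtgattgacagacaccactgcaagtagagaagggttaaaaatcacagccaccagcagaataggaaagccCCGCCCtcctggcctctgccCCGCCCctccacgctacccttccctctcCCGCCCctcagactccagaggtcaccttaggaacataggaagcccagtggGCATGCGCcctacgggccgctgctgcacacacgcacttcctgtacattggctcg

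For the left atrial appendage, the pouch of the atrium away from the veins, only the authors' deposited table was used, which lists 13646 genes and 89 members. Its model and filter are not given in the sources used here. The appendage libraries are from another study, so region and study cannot be told apart. Its 3 comparisons draw on overlapping libraries, and their values are therefore given side by side without a measure of likeness. Members called higher in the authors' deposited table numbered 2 in peri-pulmonary vein CKO at a false discovery rate of 0.05 (3.03% of all genes) and 0 lower (2.47%), namely Uqcr11 (1.12) and Cox6b1 (0.93). In its appendage CKO comparison, again from the authors' deposited table, 6 members were higher (16.8% of all genes) and 1 lower (17.9%). The 6 had log2 fold changes of 0.42 (Uqcrc2), 0.43 (Ndufb6), 0.45 (Ndufa9), 0.45 (Cox6a1), 0.48 (Sdhd) and 0.50 (Atp5j2, the f subunit of the ATP synthase) in the authors' deposited table. For the same genes the authors' deposited table gives 0.33, 0.52, 0.30, -0.00, 0.35 and 0.41 in peri-pulmonary vein tissue, where none passed. The member that was lower in the appendage was Cox7a1 (-0.62, false discovery rate 0.00273, authors' deposited table), whose value around the veins was -0.05. At a false discovery rate of 0.01 the authors' deposited table called 1 member higher (1.82% of all genes) and 0 lower (1.44%) around the veins, and 0 higher (12.0%) and 1 lower (12.8%) in the appendage. Uqcr11 was at -0.11 in the appendage in the authors' deposited table, and Cox6b1 at 0.28.

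Between regions members leaned the other way. By the authors' deposited table, 82 of 89 members had a negative log2 fold change of peri-pulmonary vein tissue against appendage, with a median of -0.36, against 0.00 for all genes. Which libraries of each region entered this comparison, Ctrl alone or also CKO, is not stated in the sources used here. Of the 89, 13 were called lower (4.06% of all genes) and 1 higher (8.19%), and at a rate of 0.01 the counts were 5 (2.37%) and 1 (5.75%). By the authors' deposited table the lowest were Uqcr11 (-1.30), Cox7c (-0.93), Cox6b1 (-0.82), Atp5j (-0.78) and the muscle form Cox7a1 (-0.75). Of these, Uqcr11, Cox7c and Cox6b1 are among the members whose 3′ terminal exon varied between libraries around the veins. The member called higher around the veins was Cox6a1, the general form of subunit 6A, at 0.89 in the authors' deposited table. By complex the medians in the authors' deposited table were -0.34 for complex I, -0.27 for complex II, -0.38 for complex III, -0.42 for complex IV and -0.43 for the ATP synthase. The direction of the regional comparison was read from Ucp1 and the airway gene Scgb1a1, both of which are positive in it. Around the veins Ucp1 was detected in every library. Scgb1a1 was abundant only in Ctrl 3 (862 CPM) and CKO 4 (1452 CPM) and was at most 42.0 CPM in the others.

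**Figure D5:**
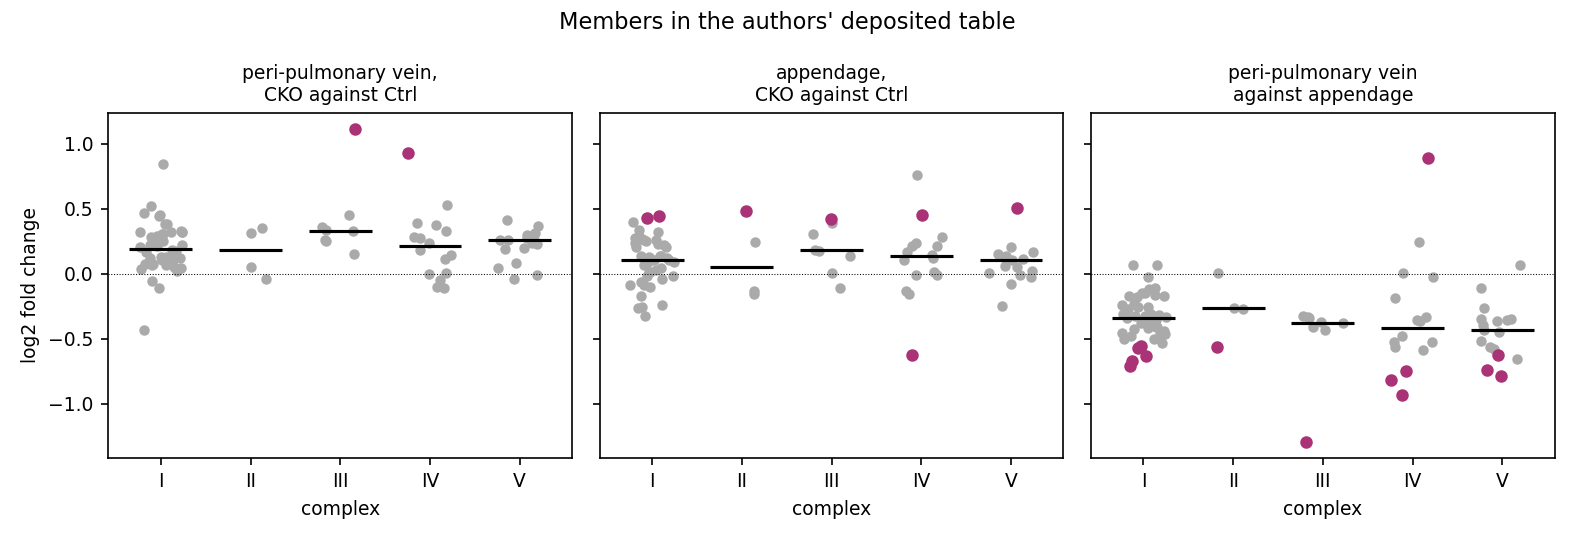
Log2 fold changes of the 89 members in the authors' deposited table (vertical axis) by complex for 3 comparisons, with members called at a false discovery rate of 0.05 in colour and medians as black lines. Medians lie above 0 in both CKO comparisons and between -0.27 and -0.43 in the comparison of peri-pulmonary vein tissue with appendage.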

How the data were processed

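Expected counts per gene were deposited by the authors; per the file headers they rest on StringTie coverage, and per the submitters' processing notes on TopHat2 2.1.1, mm10 and StringTie 1.3.3. They are whole numbers and were used as such. TPM and coverage per exon, the other deposited values, are in the transcript files, per the file headers. Log2 fold changes, p-values and false discovery rates for the appendage came from the authors' deposited table; 10 columns of libraries outside the samples used here were not used. Counts were tested with edgeR 4.0.16 (quasi-likelihood, TMM factors, filterByExpr, Benjamini-Hochberg over 17752 genes, threshold 0.05); alternatives used limma 3.58.1 and DESeq2 1.42.0 in R 4.3.3. The design had been written for counts. The procedure was tested on simulated data. Members, gene lists and tests were chosen with earlier results of these data known. Genes were named by rule: per complex the 2 highest by TPM and the lowest p, the 3 highest and 3 lowest fold changes, form pairs, fixed genes and members called in the appendage; others were named after their values were seen. The limits that define a split terminal exon were also set after the data were seen. Terminal exons, their ratios and the counts without them rest on a single transcript per gene, that with the most exons. Coverage outside its exons was not counted. Such a transcript can be minor, with a mean of 7.32 TPM for Cox4i1 and 2.49 TPM for Ndufa6. Recurring stretches were 50 bases, the read length, in GENCODE M21, which also gave the coding sequences (GRCm38). Reads of overlapping or antisense genes cannot be told apart.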

Additional observations from a re-analysis of the deposited data

Results flagged for a closer look

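Of 68 groups of values for 34 named members, 7 held a library far from the others of its group by Dixon's criterion. A rate of about 1 in 20 holds for independent groups only. These groups share the same 10 libraries, and some members were named for extreme values, so that rate does not apply here. CKO 5 was the high library 4 times: Cox6a1 was at 193 CPM there (77.2 to 103 in the other CKO libraries), Cox8a at 253 (112 to 153), Cox8b at 425 (221 to 283) and Ndufa4 at 1043 (570 to 743). Ctrl 4 was the low library for Cox8b, at 164 CPM (261 to 281 in the other Ctrl libraries), and for Sdhb, at 402 (532 to 539). CKO 4 was low for Sdha, at 713 CPM (792 to 811 in the other CKO libraries).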

How the results depend on the processing

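The number of members called higher, 0 in edgeR with TMM factors, was 2 with DESeq2 (Cox6b1 and Uqcr11), 1 with limma-voom, 1 with RLE factors, and 0 to 1 when 1 library was left out (Cox6b1 without Ctrl 1, Uqcr11 without CKO 3 or without CKO 4). Replicate numbers did not pair the samples (correlations 0.0313, 0.0876, -0.319 and 0.0894); with the replicate block 74 members were positive, with a median of 0.146, and Cox4i1, Cox6a1 and Cox8b stood at -0.299, -0.225 and -0.0158. With CPM in place of TPM the log2 ratio of summed levels was 0.244 for complex I and 0.167 for complex V. At a false discovery rate of 0.01 the authors' deposited table called 1 member higher around the veins, 0 higher in the appendage and 5 lower around the veins than in the appendage.

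Members near 0 changed sign in some settings, and the cause was not tested. With library size only Atp5a1, Cox4i1 and Cox6a1 were at -0.0513, -0.0404 and -0.0390; with upper quartile factors Atp5a1 and Cox6a1 at -0.0100 and -0.00690; with limma-voom Cox4i1 and Cox6a1 at -0.0536 and -0.0290. On log2(TPM + 1) Atp5a1 was at -0.199, Atp5b at -0.0661, Atp5g2 at -0.0145, Cox4i1 at -0.315, Cox4i2 at -0.0273, Cox6a1 at -0.173 and Sdhc at -0.228. Without a low-count filter Cox7a1 was at 0.00910 and Sdha at 0.0197. Without Ctrl 3 and CKO 4 Atp5a1 was at -0.0125, Cox7a1 at 0.177, Cox8a at 0.00924 and Ndufaf3 at 0.0877. In 2 of the 3 alternatives chosen after seeing the data (the other left Uqcr11, Cox6b1 and Ndufa6 out of summed levels), Atp5a1, Ndufa4l2 and Ndufaf3 were at -0.0550, -0.0956 and 0.205 without 3′ terminal exons, and Cox4i1, Cox6a1, Cox7a2 and Sdha at -0.149, -0.0464, -0.00842 and 0.191 without the 4 libraries high in Ucp1. Fits that left out 1 library ranged across 0 for Atp5a1 (-0.0403 to 0.0856), Cox4i1 (-0.146 to 0.156), Cox6a1 (-0.206 to 0.146), Cox7a1 (-0.158 to 0.117), Cox7a2 (-0.0131 to 0.346), Cox8b (-0.000413 to 0.248), Ndufaf3 (-0.251 to 0.0113), Sdha (-0.119 to 0.0471) and the ratio of Ndufa4l2 to Ndufa4 (-0.205 to 0.0875).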
